A study of Mus musculus with 12 samples.

Results

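The genes described here encode the enzymes that write, copy and remove 5-methylcytosine in mouse DNA. They were chosen by name, as the array's probe sets that carry a single symbol among Dnmt1, Dnmt3a, Dnmt3b, Dnmt3l, Uhrf1, Tet1, Tet2, Tet3 and Tdg. Of the 9 symbols 8 were measured, out of 22180 genes in all, and each of the 8 had 1 probe set. Tdg had no probe set of its own and is described only through the 2 that it shares with pseudogenes.

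The study profiled RNA from mouse embryonic stem cells with 12 Affymetrix arrays, 3 for each of 4 kinds of cell. Every line carries MERVL::tdTomato, a red fluorescent reporter under the promoter of an endogenous retrovirus that 2-cell embryos express. Parental cells have the reporter alone, and KO cells have it together with a knockout of both Dppa2 and Dppa4. The remaining cells are KO cells given plasmids that encode both proteins as GFP fusions, either wild type (KO+WT) or SUMO-deficient (KO+Mut). Dppa2 and Dppa4 bind DNA in pluripotent cells. SUMO is a polypeptide tag that enzymes link to target proteins. The add-back cells were sorted for GFP after lipofection, steps that the labels do not give for KO or parental cells, so in comparisons of add-back with KO or parental cells the added proteins cannot be told apart from transfection and sorting. All cells were kept in serum replacement medium with LIF on gelatin. Biological replicates is all that the labels say of the arrays within a group. They give neither whether the KO is 1 clone nor what a replicate number stands for, so p-values measure the spread between these samples.

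Methylation of CpG sites is set up by Dnmt3a and Dnmt3b, with Dnmt3l as a catalytically inactive partner that stimulates both. Dnmt1 copies the marks after replication, and Uhrf1 brings Dnmt1 to hemimethylated DNA. Tet1, Tet2 and Tet3 oxidise 5-methylcytosine, and Tdg cuts out the oxidised bases so that repair restores cytosine. In embryonic stem cells, de novo methyltransferases are known to be low in the naive state and to rise when cells become primed for differentiation. Dppa2 and Dppa4 are known to occupy CpG-rich promoters and to keep some of them free of methylation.

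Values are log2 signals as deposited, and a difference of 1 is 2-fold. Across the arrays the lower quartile of all probe sets was 2.36 to 2.47, the median 3.73 to 3.88 and the upper quartile 5.74 to 5.86. Of the measured enzymes 7 lay above the upper quartile on every array, and Tet3 lay between the median and the upper quartile. Dppa2 averaged 8.48 ± 0.31 in KO, 9.77 ± 0.41 in parental, 11.08 ± 0.28 in KO+WT and 11.20 ± 0.09 in KO+Mut cells (SD, n = 3). Dppa4 averaged 7.62 ± 0.30, 8.46 ± 0.19, 10.39 ± 0.26 and 10.54 ± 0.14 in that order. KO minus parental was -1.29 for Dppa2 (limma adjusted p = 0.0259) and -0.84 for Dppa4 (0.102, short of the threshold), and both remained above the upper quartile on the KO arrays. The stem cell markers Nanog and Zfp42 were high on all arrays, at 10.25 to 10.76 and 10.34 to 10.73, and the 12 markers of that list averaged 9.15 to 9.39 per array. In KO+Mut against parental cells 6 of the 12 were higher and 6 lower, with a median difference of -0.0062, and 0 passed (limma). With the replicate number as a block Sox2 (-0.40, adjusted p = 0.0344) and Fgf4 (-0.53, 0.0210) were lower there, where 1.54% of all genes were. Both were also lower in KO+Mut against KO with the block (adjusted p = 0.0461 and 0.0424), where 5 of the 12 were higher and 7 lower. In that comparison the replicate numbers did not pair the arrays, and the share of all genes called by the block is not given here. The number of arrays limits the precision.

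Promoter sequence is shown for 3 of the genes, Dnmt3b and Tet3 as those with an unadjusted p under 0.05 against parental cells, and Dnmt3l as a partner whose KO and parental means were alike. The sequences are the 250 bases before the annotated start in RefSeq's GRCm38.p6 build, 5′ to 3′ on the gene's strand, with CpG dinucleotides in capitals. The Dnmt3b window is chr2:153649199-153649448 (plus strand), the Dnmt3l window is chr10:78042037-78042286 (plus strand, the one with the most CpG of 3) and the Tet3 window is chr6:83441679-83441928 (minus strand).
Dnmt3b: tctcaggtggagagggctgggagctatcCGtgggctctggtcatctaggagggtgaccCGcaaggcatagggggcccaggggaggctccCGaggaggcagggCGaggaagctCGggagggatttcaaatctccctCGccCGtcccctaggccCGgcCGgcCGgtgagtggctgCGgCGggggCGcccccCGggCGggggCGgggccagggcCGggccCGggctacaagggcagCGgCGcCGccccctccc
Dnmt3l: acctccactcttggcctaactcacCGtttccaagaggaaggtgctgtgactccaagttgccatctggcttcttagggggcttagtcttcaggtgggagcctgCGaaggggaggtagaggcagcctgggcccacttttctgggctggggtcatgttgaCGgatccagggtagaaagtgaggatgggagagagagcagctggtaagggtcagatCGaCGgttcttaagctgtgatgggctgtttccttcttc
Tet3: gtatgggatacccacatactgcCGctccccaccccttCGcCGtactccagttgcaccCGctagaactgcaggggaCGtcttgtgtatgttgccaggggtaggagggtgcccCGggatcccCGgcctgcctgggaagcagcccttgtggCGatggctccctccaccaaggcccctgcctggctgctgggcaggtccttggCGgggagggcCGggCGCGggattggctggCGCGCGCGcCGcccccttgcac
The Dnmt3b window held 21 CpG, a count reached by 16.3% of 32851 promoter windows of that length, and the Tet3 window held 17, reached by 23.5%. The Dnmt3l window held 5 CpG, reached by 55.6% of windows, where the median window had 6. The other windows of the family ranged from 2 CpG at 1 of the 3 starts of Dnmt1 to 51 at Tet2, reached by 0.067% of windows. The GC box GGGCGG, searched on both strands, was present 3 times in the Dnmt3b window, 1 time in the Tet3 window and 0 times in the Dnmt3l window shown, and 32.7% of all windows held it. These counts describe letters in these windows and say nothing of binding.

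The arrays had no value for methylation itself, so what follows concerns transcript levels. In the fit of 4 group means without a term for the replicate number, 0 of the 8 genes passed the threshold (limma, adjusted p under 0.05 over 22180 genes) in any of the 6 comparisons between groups. The share of all genes called was 0.239% for KO against parental cells, 0.83% for KO+WT and 1.27% for KO+Mut against KO, 0% for KO+Mut against KO+WT, and 0.55% and 0.992% for KO+WT and KO+Mut against parental cells. At an unadjusted p under 0.05, 2 of the 8 genes were counted in each comparison with parental cells, where 6.94%, 10.7% and 11.5% of all genes were, and they were Dnmt3b and Tet3 each time. In the 3 other comparisons that count was 0 of 8, where 12% (KO+WT against KO), 12.5% (KO+Mut against KO) and 3.04% (KO+Mut against KO+WT) of all genes were. The test for any difference among the 4 groups gave adjusted p between 0.1 for Tet3 and 0.98 for Tet1, with 1.47% of all genes called. The replicate numbers paired the arrays in the comparisons with parental cells, and with the number as a block Dnmt3b passed in all 3 of them.

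**Figure D1:**
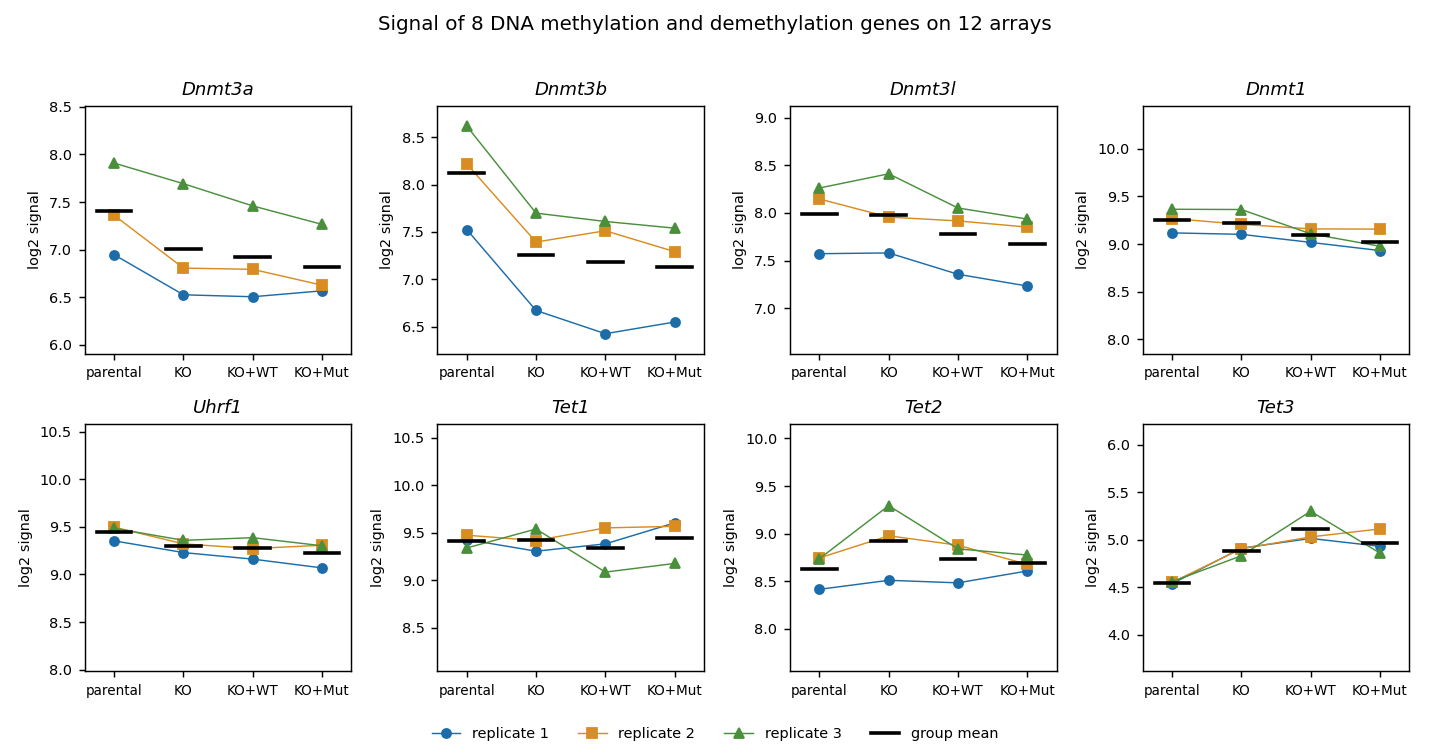
Log2 signal (y axis, the same span in every panel) of the 8 genes in the 4 groups (x axis). Points are single arrays, lines join arrays of the same replicate number, and black bars are group means. Dnmt3b is lower in KO than in parental cells along all 3 lines, while Tet3 is lowest in parental cells on every array.

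Dnmt3b, the de novo methyltransferase best known from the implanting embryo, was lower in every group that carried the knockout. Its signal was 7.53, 8.22 and 8.61 on parental replicates 1, 2 and 3 and 6.67, 7.39 and 7.70 on the KO replicates. With wild-type add-back it was 6.43, 7.51 and 7.61, and with mutant add-back 6.55, 7.29 and 7.54. The groups overlapped, because replicate 1 was the lowest and replicate 3 the highest array of each group, but each KO, KO+WT and KO+Mut array was below the parental array of its number.

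The KO-minus-parental difference of Dnmt3b was -0.86 (log2, SE 0.38, 95% interval -1.68 to -0.05, n = 3 per group, limma adjusted p = 0.679), a level 0.55 times that of parental cells. By number the differences were -0.85, -0.82 and -0.92. These lie close together compared with the spread within a group, which had an SD of 0.55 in parental and 0.53 in KO cells. With the replicate number as a block the SE was 0.10 and the adjusted p 0.00439, a setting in which 0.437% of all genes were called lower.

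Against parental cells the Dnmt3b difference was -0.93 with wild-type add-back (adjusted p = 0.389, and 0.00192 with the block) and -0.99 with mutant add-back (adjusted p = 0.323, and 0.000973 with the block). The 3 comparisons share the parental arrays. With the block 0.996% and 1.54% of all genes were called lower in KO+WT and KO+Mut. With the block all 3 calls were kept whichever of the 6 arrays of the comparison was left out, with adjusted p up to 0.0376, 0.0174 and 0.0108 for KO, KO+WT and KO+Mut. Neither add-back brought Dnmt3b above its KO level beyond the error. The difference from KO was -0.07 with wild-type (95% interval -0.89 to 0.74) and -0.13 with mutant proteins (-0.94 to 0.69), while KO+Mut minus KO+WT was -0.06 (-0.87 to 0.76).

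Dnmt3a, the methyltransferase that is also widely present in somatic and germ cells, had its highest group mean in parental cells as well. Its signal was 6.95, 7.36 and 7.91 in parental, 6.52, 6.81 and 7.69 in KO, 6.50, 6.79 and 7.46 in KO+WT cells and 6.57, 6.63 and 7.27 in KO+Mut cells. All 9 arrays of the other groups lay below the parental array of their number, as was also so for Dnmt3b, Dnmt1 and Uhrf1. The share of all genes with this pattern was not counted. The Dnmt3a groups overlapped widely. The differences from parental cells were -0.40 for KO (SE 0.34, limma adjusted p = 0.947), -0.49 for KO+WT (0.653) and -0.59 for KO+Mut (0.561). With the block their adjusted p was 0.152, 0.0491 and 0.0193, so that the add-back differences passed and the KO difference did not. The 2 calls were fragile. That of KO+WT was kept in 0 of 6 fits with the block and without 1 of its arrays (adjusted p 0.115 to 0.197), and that of KO+Mut in 1 of 6 (0.0269 to 0.105; it was kept without KO+Mut replicate 1 alone).

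Dnmt3l, which has no catalytic activity of its own, gave nearly equal means in KO and parental cells. The arrays read 7.57, 8.15 and 8.26 in parental and 7.58, 7.96 and 8.41 in KO cells, a difference of -0.01 (SE 0.27, 95% interval -0.59 to 0.56, adjusted p = 0.999). They read 7.36, 7.92 and 8.05 in KO+WT cells and 7.23, 7.85 and 7.94 in KO+Mut. Every add-back array was below the KO array and below the parental array of its number. The differences from parental cells were -0.22 and -0.32 (adjusted p = 0.831 and 0.721, and 0.265 and 0.101 with the block), so that no Dnmt3l difference passed.

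The maintenance genes varied little. Dnmt1 read 9.12, 9.27 and 9.37 in parental, 9.10, 9.21 and 9.36 in KO, 9.02, 9.16 and 9.11 in KO+WT cells and 8.93, 9.16 and 8.98 in KO+Mut cells. Uhrf1, the ubiquitin ligase that recruits Dnmt1, read 9.35, 9.50 and 9.49 in parental, 9.23, 9.32 and 9.36 in KO, 9.16, 9.27 and 9.39 in KO+WT cells and 9.07, 9.31 and 9.30 in KO+Mut cells. Both had the order parental, KO, KO+WT, KO+Mut from high to low, and no difference between neighbours in that order passed the threshold, with or without the block. Uhrf1 was lower in KO than in parental cells at all 3 numbers, with differences of -0.12, -0.18 and -0.13 (adjusted p = 0.943, and 0.553 with the block). The widest gap was that of KO+Mut from parental cells, -0.23 for Dnmt1 (SE 0.12, 95% interval -0.49 to 0.03) and -0.22 for Uhrf1 (SE 0.11, -0.47 to 0.03), with a limma adjusted p of 0.508 for each. The Uhrf1 arrays of those groups did not overlap, as was so for 18% of all genes in that comparison in either direction.

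Tet1 and Tet2, the dioxygenases known to be the main Tet enzymes of embryonic stem cells, passed in no comparison. Tet1 lay between 9.09 and 9.60 on all 12 arrays, with group means of 9.42 in parental, 9.42 in KO, 9.34 in KO+WT and 9.45 in KO+Mut cells. Tet2 read 8.41, 8.74 and 8.74 in parental and 8.51, 8.98 and 9.29 in KO cells, higher in KO at all 3 numbers by a mean of 0.30 (SE 0.19, adjusted p = 0.878, and 0.374 with the block). In KO+WT it read 8.48, 8.88 and 8.84 and in KO+Mut 8.61, 8.68 and 8.77, between the KO and parental means.

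Tet3, known for its role in the fertilised egg and in neural cells, had the opposite direction to Dnmt3b. Its signal was 4.54, 4.55 and 4.56 in parental, 4.91, 4.90 and 4.83 in KO, 5.01, 5.03 and 5.30 in KO+WT cells and 4.93, 5.11 and 4.86 in KO+Mut cells. Every parental array was below all 9 others, and the order of group means from high to low was KO+WT, KO+Mut, KO, parental. Groups not overlapping were found for 12.9%, 15.9% and 18% of all genes in the comparisons of KO, KO+WT and KO+Mut with parental cells. The differences were 0.33 (SE 0.12, adjusted p = 0.497), 0.56 (adjusted p = 0.056) and 0.42 (adjusted p = 0.141) in that order, all in the same direction and short of the threshold.

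With the block the adjusted p of Tet3 was 0.243, 0.0309 and 0.0681, so that only KO+WT passed, where 1.07% of all genes were called higher, and that call was kept in 0 of 6 fits with the block and without 1 array (0.0591 to 0.134). It also passed without genes of low signal (adjusted p = 0.0381) and with array weights (0.0414, and 0.0414 for KO+Mut). The difference from KO was 0.23 with wild-type add-back (95% interval -0.02 to 0.48) and 0.09 with mutant add-back (-0.16 to 0.34). The Tet3 signal is low on this array, without detection calls, and a log2 difference may understate a change there.

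**Figure D2:**
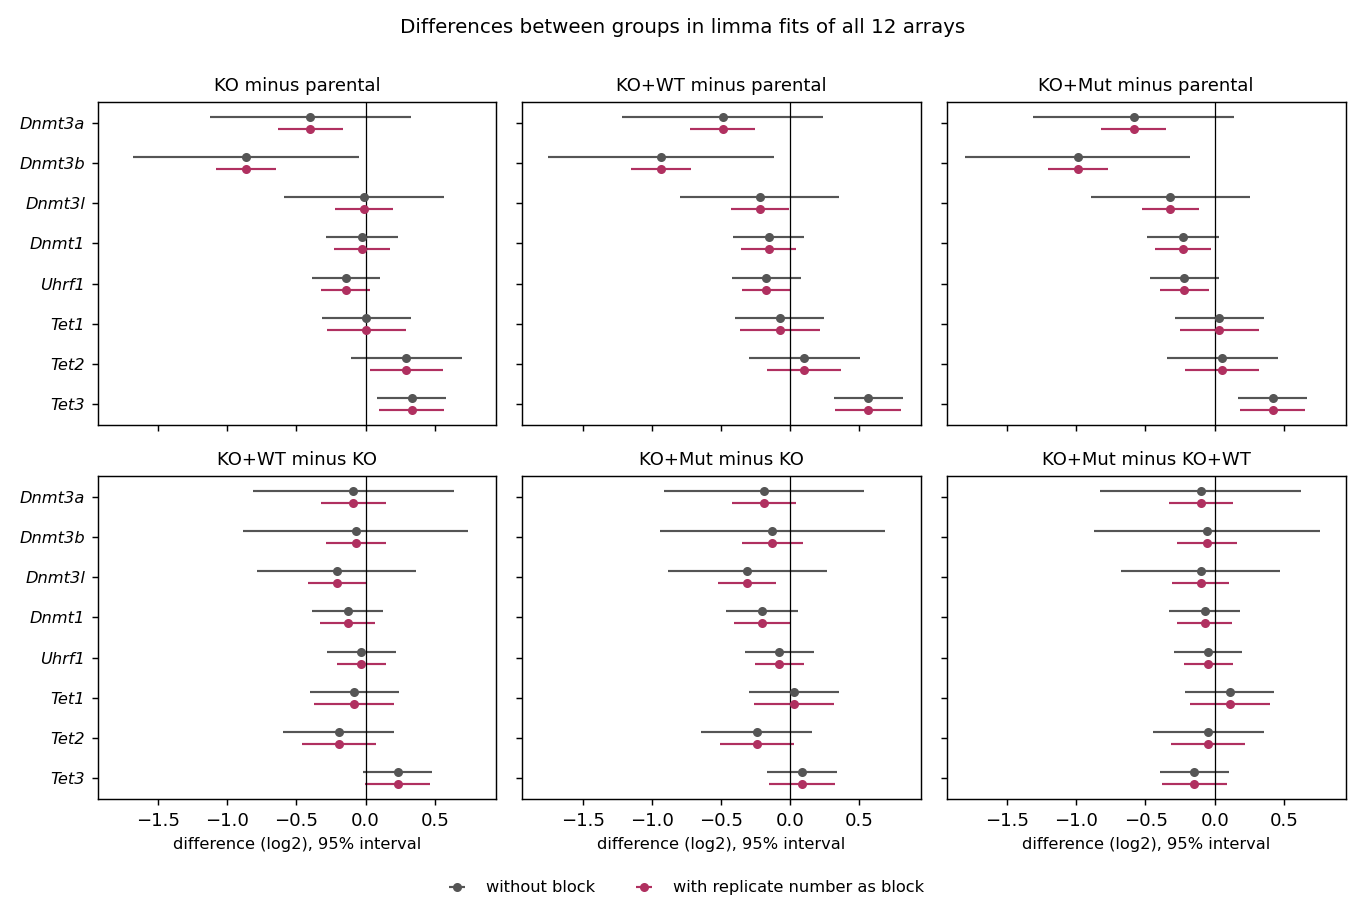
Differences in log2 signal (x axis, with 95% intervals) of the 8 genes (y axis) for the 6 comparisons, from limma fits of all 12 arrays without the replicate block (grey) and with it (red). The Dnmt3b interval against parental cells shrinks from -1.68 to -0.05 to -1.08 to -0.65 in KO, while all intervals of KO+Mut against KO+WT include 0.

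The SUMO-deficient and wild-type proteins could be compared with transfection and sorting matched. The 8 differences of KO+Mut from KO+WT ran from -0.15 (Tet3) to 0.11 (Tet1), with a limma adjusted p of 1 for every gene and a median of -0.06, against -0.01 over all genes. The interval was narrowest for Uhrf1, -0.29 to 0.20, and widest for Dnmt3b, -0.87 to 0.76, so that a change of more than 2-fold in either direction lay outside all 8 of them. With the block the interval for Dnmt3b was -0.27 to 0.16. The numbers paired the arrays in this comparison too, and the lowest adjusted p with the block was 0.918. Against KO, 7 of the 8 genes were lower in KO+WT and 6 in KO+Mut, with medians of -0.09 and -0.16; 11119 and 11385 of the 22180 genes were lower.

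Most of the variation of the de novo enzymes lay between replicate numbers. Of the sum of squares over the 12 arrays, the number accounted for 80.8% for Dnmt3l, 74.0% for Dnmt3a, 57.2% for Tet2 and 55.2% for Dnmt3b, against a median of 23.0% over all genes. For Dnmt3a, Dnmt3b and Dnmt3l, replicate 1 was the lowest and replicate 3 the highest array in all 4 groups, a pattern held by 3.22% of all genes. Tet3 was the exception, with 0.962% between numbers and 85.2% between groups, and Tet1 had 58.0% in the rest. Dnmt3b had 43.5% between groups and 1.26% in the rest.

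**Figure D3:**
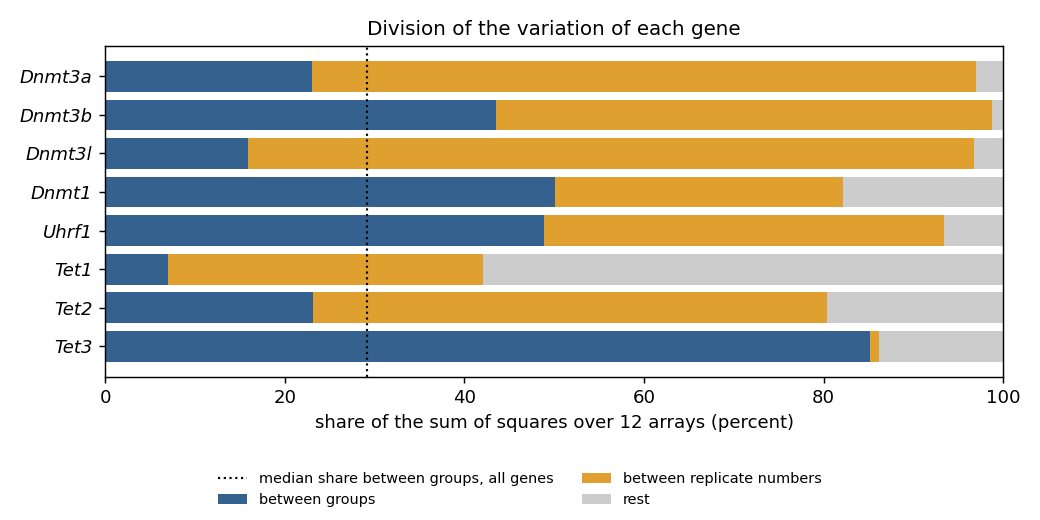
Share of the sum of squares over 12 arrays in percent (x axis) that lay between the 4 groups, between the 3 replicate numbers and in the rest, for each of the 8 genes (y axis). The dotted line is the median share between groups over all genes, 29.2%; only Tet3 has most of its variation between groups together with almost none between numbers.

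The levels of the de novo enzymes moved together over the 12 arrays. Pearson's r was 0.859 for Dnmt3a with Dnmt3b, 0.845 for Dnmt3b with Dnmt3l and 0.933 for Dnmt3b with Uhrf1 (Spearman's rho 0.965, 0.874 and 0.902). After subtraction of each group's mean these were 0.832, 0.972 and 0.901, so the likeness was also found within groups. The points share array, replicate number and group, and they are given as a description. Tet1 was the enzyme least like Dnmt3b in size (r = -0.138), and Tet3 ran against it (r = -0.504).

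Other genes were compared with the 3 enzymes of widest range between group means, Dnmt3b, Dnmt3a and Tet3, over the 12 arrays. Among 11089 genes of above-median signal, the closest to Dnmt3b were Nt5e (r = 0.969), which encodes an ecto-nucleotidase, the cyclin E1 gene Ccne1 (0.960) and Bex4 (0.953). The closest to Dnmt3a were Cacybp (0.987), the chaperone gene Hspa4 (0.976) and Mtap (0.969), and the closest to Tet3 were Psme3ip1 (0.879), Mdga1 (0.877) and Ufd1 (0.866). The KO-minus-parental differences were -0.91 for Nt5e, -0.33 for Ccne1 and -0.38 for Bex4. They were -0.23, -0.08 and -0.32 for Cacybp, Hspa4 and Mtap and 0.18, 0.31 and 0.09 for Psme3ip1, Mdga1 and Ufd1. Here too the points share replicate number and group, and the genes were picked for the highest r, so the values are a description.

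Markers of other cell types were read on the same arrays. All 14 markers of primitive and parietal endoderm were lower in KO than in parental cells, where array means of the list were 6.13 to 6.48 and 6.61 to 7.14, with a median difference of -0.52. Of the 22180 genes 11043 were lower in KO. For KO 0 of the 14 passed (limma), and 10 had an unadjusted p under 0.05, where 6.94% of all genes did. Lama1 and Lamb1 fell in each add-back against parental cells, where 0.23% and 0.338% of all genes fell in KO+WT and KO+Mut. With the block Pdgfra (-1.24, adjusted p = 0.00091) and Lama1 (-0.73, 0.0227) fell in KO, and 4 of the 14 fell in each add-back against parental cells. Of all genes the block called 0.437%, 0.996% and 1.54% lower against parental cells in KO, KO+WT and KO+Mut. The defining gene Gata6 lay between 7.64 and 9.37 on all arrays. Of 11 markers of formative and primed cells 6 were lower in KO, with list means of 5.64 to 5.75 against 5.74 to 5.95, and 0 passed (limma, 3 at an unadjusted p under 0.05). With the block Sfrp2 fell in KO (-0.76, adjusted p = 0.0279), 2 fell in each add-back against parental cells and 1 rose in KO+Mut. Fgf5, which defines primed cells, was low throughout, at 2.13 to 3.25. The means of 17 markers of 2-cell-like cells were 2.42 to 2.60 in KO, 3.42 to 3.99 in parental, 5.70 to 7.11 in KO+WT and 6.66 to 7.57 in KO+Mut cells. By number, the endoderm list averaged 6.30, 6.52 and 6.52 over replicates 1, 2 and 3, the primed list 5.69, 5.73 and 5.79 and the 2-cell-like list 4.59, 5.07 and 5.27. The stem cell list averaged 9.25, 9.30 and 9.21, and a list of 15 fibroblast markers fell, at 3.98, 3.93 and 3.88. In bulk samples fewer cells of a type and less RNA per cell cannot be told apart, and the part of these markers in the levels of the enzymes was not tested. The 15 fibroblast markers averaged 3.81 to 4.03 per array in parental, 3.76 to 3.88 in KO, 3.96 to 4.06 in KO+WT and 3.96 to 3.99 in KO+Mut cells. Dcn and Lum lay at 1.29 to 2.48, near or below the lower quartile, whereas Col1a1, Col5a1, Loxl1 and Pdgfrb, picked here as markers above the median, lay between 4.42 and 6.42. Of the 15, 13 were lower in KO than in parental cells and 0 passed (limma, 1 at an unadjusted p under 0.05), and with the block Pdgfrb rose by 0.65 (adjusted p = 0.0331). The shares of all genes that the block called higher against parental cells in KO and in KO+Mut are not given here.

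Other genes of the pathway were taken from 4 lists with 56 measured genes. Against parental cells 0 rose and 1, 3 and 2 fell in KO, KO+WT and KO+Mut, where 0.203%, 0.23% and 0.338% of all genes fell. Against KO 0 rose and 1 fell with each add-back, where 0.0992% and 0.153% of all genes fell with wild-type and mutant proteins. The medians were -0.00, -0.11 and -0.13 against parental cells and -0.10 and -0.11 against KO, where the median over all genes was within 0.01 of 0. None of the 8 methyl-CpG readers passed (at an unadjusted p under 0.05, 0 or 1 did). Mbd4, a glycosylase that binds methylated CpG, had the smallest p of that list, with a difference of -0.26 in KO+Mut from parental cells (adjusted p = 0.408), and Zbtb38 followed with 0.25 in KO (0.75).

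A list of 13 genes held base excision repair genes, among them other DNA glycosylases, together with Gadd45b and Gadd45g. Of the 13, 0 passed in any of the 6 comparisons between groups (limma), and 0 to 2 did at an unadjusted p under 0.05. The DNA ligase gene Lig3 came closest, at -0.52 in KO+Mut and -0.47 in KO+WT from parental cells (limma adjusted p = 0.216 and 0.317, and 0.0217 and 0.0427 with the replicate block). The stress-response gene Gadd45g differed by 0.53 between KO+Mut and KO (adjusted p = 0.303).

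Among 19 partners and regulators of the enzymes, Hells and Prdm14 passed. With the block Cdca7, which encodes a partner of Hells, also fell in KO+Mut against parental cells (-0.44, adjusted p = 0.146, and 0.039 with the block). Hells, a chromatin remodeller needed for methylation of repeats, read 9.26, 9.24 and 9.58 in parental, 8.61, 8.82 and 8.99 in KO, 8.24, 8.51 and 8.66 in KO+WT cells and 8.16, 8.32 and 8.69 in KO+Mut cells. Every parental array was above all others. Groups did not overlap for 12.9%, 15.9% and 18% of all genes in KO, KO+WT and KO+Mut against parental cells. Hells fell by 0.89 in KO+WT and by 0.97 in KO+Mut against parental cells (SE 0.17, adjusted p = 0.0384 and 0.0147, and 0.00147 and 0.00068 with the block). The KO difference of -0.56 passed with the block only (adjusted p = 0.375, and 0.0297 with it). Without the block the KO+WT call was kept in 0 of 6 fits without 1 of the arrays (adjusted p up to 0.162, without parental replicate 3). That of KO+Mut was lost without parental replicate 3, KO+Mut replicate 1 and KO+Mut replicate 2 (up to 0.0806).

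Prdm14, a regulator known to repress Dnmt3b in naive cells, fell with the add-backs, while its KO-minus-parental difference was 0.11 (limma adjusted p = 0.986). Its signal was 6.57, 6.47 and 6.37 in parental, 6.43, 6.67 and 6.65 in KO, 5.82, 5.86 and 5.73 in KO+WT cells and 5.76, 5.73 and 6.15 in KO+Mut cells. The add-back arrays were all below the others. Against parental cells groups did not overlap for 15.9% (KO+WT) and 18% (KO+Mut) of all genes, and the shares against KO are not given here. Against KO it fell by 0.78 with wild-type and by 0.70 with mutant proteins (SE 0.13, limma adjusted p = 0.0148 and 0.0194, and 0.0163 and 0.0204 with the block). The replicate numbers did not pair the arrays in these comparisons with KO. The add-backs differed by 0.08 (95% interval -0.21 to 0.37). Prdm14 also fell by 0.67 in KO+WT against parental cells (adjusted p = 0.0464, and 0.0335 with the block). The KO+Mut difference of -0.59 had an adjusted p of 0.0592, and 0.0407 with the block.

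The Prdm14 calls were lost in most fits without 1 of the arrays compared. That of KO+WT against KO was lost without KO replicates 2 and 3 and KO+WT replicates 2 and 3 (adjusted p up to 0.0783). That of KO+Mut was lost without KO replicates 2 and 3 and KO+Mut replicates 1 and 2 (up to 0.107), and that of KO+WT against parental cells without any 1 of its 6 arrays (up to 0.172).

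Of 16 genes that supply methyl groups or 2-oxoglutarate, the cofactor of Tet enzymes, Gldc passed. It encodes a subunit of the glycine cleavage system, which feeds one-carbon units to folate. Its signal was 9.05, 9.18 and 9.11 in parental cells and 7.78, 8.03 and 7.87 in KO cells. It was 7.99, 8.24 and 7.61 in KO+WT cells and 7.76, 7.97 and 7.59 in KO+Mut, so that no array of these 3 groups reached a parental one. Groups not overlapping with the parental one were found for 12.9%, 15.9% and 18% of all genes in KO, KO+WT and KO+Mut. Against parental cells Gldc fell by 1.22 in KO, by 1.16 in KO+WT and by 1.34 in KO+Mut (SE 0.16, limma adjusted p = 0.00582, 0.00398 and 0.000941). The calls were kept whichever of the arrays compared was left out (adjusted p up to 0.0428, 0.0329 and 0.00846). The add-back differences from KO were 0.05 and -0.12 (adjusted p = 0.927 and 0.819).

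**Figure D4:**
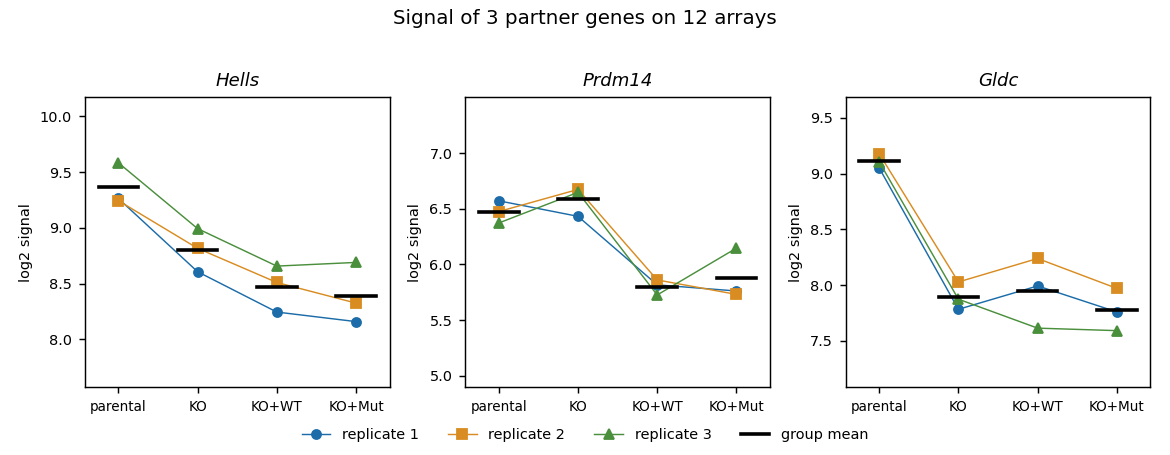
Log2 signal (y axis, the same span in every panel) of Hells, Prdm14 and Gldc in the 4 groups (x axis), with a point per array, lines joining replicate numbers and black bars for group means. Hells and Gldc are highest in parental cells, where Gldc is at 9.05 to 9.18, and Prdm14 is lower in both add-backs than in KO and parental cells.

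Germline genes whose promoters are methylated in somatic cells were the last list, with 22 measured genes. Against parental cells 4 fell and 0 rose in KO, where 0.203% of all genes fell. Against KO 4 and 5 rose with wild-type and mutant add-back and 0 fell, where 0.73% and 1.12% of all genes rose. With the block 6 fell in KO, where 0.437% of all genes were called lower, with Mael (-0.84, adjusted p = 0.0445) and Rpl10l (-0.68, 0.0393) added. The median differences were -0.29, 0.33 and 0.43. The 4 that fell were Ddx4 (-1.41), Dazl (-1.35), Syce1 (-1.45) and Slc25a31 (-0.76), which encode a helicase and an RNA-binding protein of germ cells, a synaptonemal complex protein and a mitochondrial carrier of sperm. With add-back of wild-type and mutant proteins Dazl rose by 1.69 and 1.80, Ddx4 by 1.25 and 1.40, Slc25a31 by 0.85 and 0.94 and Mov10l1 by 1.03 and 1.02, and Tdrd6 rose by 0.89 with the mutant. Dazl was at 6.62 ± 0.20 in parental, 6.97 ± 0.25 in KO+WT and 7.07 ± 0.14 in KO+Mut cells (SD, n = 3), while Syce1 was at 5.49 ± 0.41, 4.80 ± 0.38 and 4.82 ± 0.07. Against parental cells none passed in KO+WT (limma), and 9 had an unadjusted p under 0.05, where 10.7% of all genes did. Tdrd6 rose by 0.90 in KO+Mut, where 0.654% of all genes rose (adjusted p = 0.0179, kept in 2 of 6 fits without 1 array, up to 0.107). With the block 2 rose and 1 fell in each of these comparisons. Of all genes the block called 0.996% and 1.54% lower in KO+WT and KO+Mut, and 1.07% higher in KO+WT. The share called higher in KO+Mut is not given here. The calls of Dazl and Ddx4 were kept in every fit without 1 of the arrays compared. Those of Slc25a31 and Syce1 in KO were kept in 1 and 3 of 6 such fits (adjusted p up to 0.135 and 0.068), those of Mov10l1 in 1 and 3 (up to 0.106 and 0.0955) and that of Tdrd6 in 3 (up to 0.0898).

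Tdg could be read only on probe sets shared with Tdg-ps and with Tdg-ps2, so that no value belongs to it alone. The probe set shared with Tdg-ps2 averaged 8.43 ± 0.31 in parental, 8.49 ± 0.29 in KO, 8.14 ± 0.18 in KO+WT and 8.17 ± 0.22 in KO+Mut cells (SD, n = 3). The one shared with Tdg-ps averaged 5.15 ± 0.36, 5.53 ± 0.19, 4.90 ± 0.67 and 4.81 ± 0.28 in that order. On both, the add-back means were below the KO and parental means, and these probe sets were not tested.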

How the data were processed

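Gene expression was measured on 12 Affymetrix arrays, 3 per group, grouped by their titles. Each probe set has 1 deposited log2 signal per array, which the authors computed with Transcriptome Analysis Console, per the submitters' processing notes; nothing used here gives its version, background correction, summarization or genome build. Of 41345 probe sets 23521 carried 1 gene symbol, 1814 several and 16010 none. A gene with more than 1 probe set was represented by the one of highest mean, which left 22180 genes.

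All 12 arrays were fitted with 1 mean per group in limma 3.58.1 (lmFit and eBayes, two-sided, R 4.3.3), with Benjamini-Hochberg adjustment over all genes and a threshold of 0.05. The script was tested on simulated data. Promoter windows were read in Python 3.11.15 with pandas 2.3.3, and plots drawn in matplotlib 3.10.9. RefSeq windows were found for all 9 symbols, 16 in all. No 2 arrays held identical values.

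Each group has replicates 1 to 3 by title. Same-numbered arrays were taken as paired where every number's deviations from the group means correlated over genes above 0.1. This held against parental cells (r from 0.13 to 0.42) and between the add-backs (0.21 to 0.47), but not for KO+WT and KO+Mut against KO, where number 2 gave 0.06 and 0.08.

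The members, lists and tests were chosen with earlier results of these data known. Named were all members, Dppa2 and Dppa4, the genes of each pathway list past the threshold (at most 6, or the 2 of smallest p where none passed), the 3 genes most correlated with each of the 3 members of widest range, and defining markers. The alternatives were the replicate block, each array left out, 6 arrays only, median centring, quantile normalization, a filter on dim genes at percentile 25, the mean of probe sets, trend and robust variances, and array weights. The block together with leaving out an array was added after seeing the data.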

Additional observations from a re-analysis of the deposited data

How the results depend on the processing

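Without the replicate block 0 of the 8 genes passed in any comparison, and this held in every fit without 1 array, with 6 arrays, with either rescaling, with the mean of probe sets and with trend and robust variances. With the replicate block 1 gene passed in KO, 3 in KO+WT and 2 in KO+Mut against parental cells, and 2 in the test for any difference among groups; it changed no other call of the 8 genes. For add-backs against KO the pairing rule was not met, because number 2 gave r of 0.06 and 0.08, while numbers 1 and 3 gave 0.29 to 0.36. There the replicate block gave 5 germline genes higher and 1 lower with wild-type and 8 higher and 1 lower with mutant proteins. It also called Cdca7 lower in both (adjusted p = 0.048 and 0.0307), Hells with the mutant (0.0392) and Gadd45b in both. The shares of all genes that the block called in these comparisons with KO are not given here, so the counts stand without a background. Without genes below percentile 25, 1 passed in KO+WT against parental cells, and with array weights 1 passed in each of KO+WT, KO+Mut and the test for any difference, Tet3 each time. The shares of all genes passing with that filter, with array weights and in the test for any difference with the block are not given here. The causes of these changes in calls were not tested.

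Of 1112 differences of the 8 genes under alternatives 56 changed sign, none larger than 0.31 in size. Median centring gave 0.0083 for Dnmt3l in KO against parental cells, -0.052 for Tet1 in KO+Mut against KO, and -0.025 for Tet1 and -0.0058 for Tet2 in KO+Mut against parental cells. Array weights gave -0.020 for Tet1 in KO against parental cells and 0.039 for Tet1 in the mean of both add-backs against KO. Quantile normalization gave 0.020 for Uhrf1 in KO+WT against KO and 0.0019 for Tet1 in the mean of both add-backs against KO.

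Leaving out 1 array turned the sign of small differences, which then ranged as follows. In KO against parental cells the ranges were -0.095 to 0.035 for Dnmt1, -0.23 to 0.19 for Dnmt3l and -0.052 to 0.064 for Tet1. In KO+WT against KO the ranges were -0.36 to 0.25 for Dnmt3a, -0.36 to 0.31 for Dnmt3b, -0.41 to 0.0066 for Dnmt3l, -0.087 to 0.026 for Uhrf1 and -0.19 to 0.046 for Tet1. In KO+Mut against KO the ranges were -0.43 to 0.15 for Dnmt3a, -0.42 to 0.16 for Dnmt3b, -0.12 to 0.0010 for Uhrf1 and -0.049 to 0.16 for Tet1. In KO+Mut against KO+WT the ranges were -0.32 to 0.17 for Dnmt3a, -0.43 to 0.23 for Dnmt3b, -0.31 to 0.12 for Dnmt3l, -0.10 to 0.031 for Uhrf1, -0.018 to 0.25 for Tet1 and -0.17 to 0.025 for Tet2. In KO+WT against parental cells the ranges were -0.18 to 0.053 for Tet1 and -0.0065 to 0.23 for Tet2. In KO+Mut against parental cells the ranges were -0.042 to 0.17 for Tet1 and -0.054 to 0.11 for Tet2. In the mean of both add-backs against KO the ranges were -0.38 to 0.20 for Dnmt3a, -0.39 to 0.12 for Dnmt3b and -0.084 to 0.042 for Tet1.

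The number of arrays limits the precision. Signal over background was not analysed, so Tet3, Fgf5 and other genes of low signal have no detection call. Whether the replicate number stands for a shared culture, day or batch is not given, and the block rests on the correlations between arrays. The added proteins cannot be told apart from transfection and sorting in the comparisons of add-backs with parental or KO cells.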
